A study of Homo sapiens with 16 samples.

Results

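Chromosome 19 carries the highest density of genes of the human chromosomes, and most of these genes are short and lie close to their neighbours. The genes described here are those of its gene-dense stretches, taken from the authors' RNA table by position on hg19 (the human genome build of the submitters' processing notes). They comprise every gene from the tip of the short arm (19p), with a first start at 107471, to an end at 19843906, and every gene of the long arm (19q) from 29698173 to 52329442. The limits were set to leave out the zinc finger gene clusters near the centromere and at the end of 19q. Identifiers in the table could not be paired with names, so zinc finger genes within the limits, or a cluster of them, could not be recognised. Of 19333 genes in the table, 1122 were members, 555 on 19p and 567 on 19q, and another 250 genes of chromosome 19 were not.

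The RNA came from HEK293 cells, an immortalised human embryonic kidney line, and total RNA was sequenced after depletion of ribosomal RNA. The control libraries (scramble 1 and 2) came from cells transfected with a negative control RNA. The other pair (Top1 KD 1 and 2) came from cells transfected with siRNA against Top1, transfected again 2 days later and harvested 5 days after the first round. Cells of both groups thus went through the same transfections, and the sources do not name which of the study's siRNAs these libraries received. Of the 16 samples of the series, only these 4 RNA libraries were used, because the R-loop and RNA polymerase II profiles were not analysed here.

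Top1 is the enzyme that nicks and reseals DNA to release the supercoils that build up ahead of and behind RNA polymerase. When it is lacking, unresolved supercoils can hinder elongation, above all in long or heavily transcribed genes, and can favour R-loops, in which the nascent RNA pairs with the template strand. Where genes are packed closely, as on chromosome 19, supercoils from one gene can also reach the next. The table allows one question to be asked of this region, namely whether RNA from a chromosome stretch of short, crowded genes differed between Top1 KD and scramble cells.

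The 4 libraries held between 14681774 and 18366226 reads on genes, of which 3.38% to 3.73% fell on the members. A value in the table is a normalized read count, meaning reads on a gene divided by a size factor of the library and not scaled for gene length. Of the 1122 members, 904 had a read in at least 1 library and 717 (63.9%) passed the filter of at least 10 normalized counts in 2 libraries, against 67.7% of all genes. The other 405 members, 218 of them without a single read, were not tested. Replicates differed by more than sampling noise. Their chi-square per degree of freedom, the observed spread over that of sampling, was 10.8 over members in scramble, against 10.6 over all genes. In Top1 KD libraries it was 11.3 against 15.4. For 503 members the mean of the 4 libraries was 100 normalized counts or higher. Of these, 36 (7.16%) had scramble replicates that were apart by 1.5-fold or more, against 4.14% of all genes with such a mean. The Top1 KD replicates were as far apart for 50 members (9.94%), against 7.45%. The labels do not say whether replicates were separate cultures, so p-values measure the spread between libraries, which may be technical. Because identifiers could not be paired with names, the level of the Top1 transcript itself is not given.

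Members were short and crowded. Their median length from start to end was 12.6 kb, against 21.7 kb over all genes, and the median distance to the nearest gene was 2.36 kb against 5.84 kb. The share overlapping another gene was similar, at 14.9% against 16.0%. Members lay evenly on the strands, with 561 on each. The crowding was uneven along the chromosome. In the 31 tested and 5 untested members between 30 and 35 Mb the median length was 36.6 kb and the median distance to the nearest gene 7.59 kb, whereas beyond 50 Mb the 89 members had a median length of 9.69 kb and a distance of 1.36 kb. The share of members that passed the filter was 86.1% in the first of these stretches and 47.2% in the second. Tested members had a median of 282 normalized counts, against 542 for all tested genes.

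Some members without detectable RNA lay in runs of neighbours. Members without a read made up 19.4%, against 19.7% of all genes. Such runs were not counted elsewhere in the genome. The longest run without a read in any library was 8 consecutive genes at chr19:42082601-42356401. Further runs held 7 genes at chr19:51322409-51456344 and 6 genes at chr19:15783567-16008930. When genes under the filter were counted as well, the run that starts at 51322409 grew to 16 genes over 265 kb, 14 of them on the minus strand, with a highest value of 7.47 normalized counts. Another 12 genes in a row at chr19:15562435-16060768 stayed under the filter. At chr19:43084393-43690653, 8 genes in a row, all on the minus strand, reached at most 4.40 normalized counts. None of these genes entered the tests that follow.

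A slightly smaller part of the RNA came from the members in Top1 KD cells. They took 3.73% and 3.64% of the reads of the scramble libraries (mean 3.68% ± 0.0644, SD, n = 2) and 3.38% and 3.47% of those of the Top1 KD libraries (3.42% ± 0.0614, n = 2). The groups did not overlap, and the difference of -0.260 percentage points was several times the SD of either group. With 2 libraries against 2, an exact permutation test cannot give a two-sided p below 0.333, which is the value obtained. The lack of overlap was not particular to the members. The other genes of chromosome 19 took 0.440% and 0.433% of scramble reads and 0.388% and 0.408% of Top1 KD reads. Their ratio of Top1 KD over scramble was 0.911, against 0.929 for the members. The shares of chromosome 22 (ratio 0.975) and chromosome 17 (ratio 1.016) did not overlap between groups either. In bulk RNA a change in the make-up of the culture and a change in RNA per cell cannot be told apart.

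The decrease lay mainly on the short arm and largely in 1 gene. Members on 19p took 2.16% and 2.08% of reads in scramble and 1.89% and 1.92% in Top1 KD libraries, a difference of -0.213 points. Those on 19q took 1.58% and 1.56% against 1.49% and 1.55%, a difference of -0.0476 points. The member with most reads, at chr19:3976054-3985467 on the minus strand of 19p, alone held 0.369% and 0.322% of scramble reads and 0.213% and 0.214% of Top1 KD reads. Without it the difference over all members was -0.128 points, and the groups still did not overlap (3.36% and 3.32% against 3.17% and 3.25%). Without the 10 members with most reads it was -0.142 points.

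The same shift was seen when every gene counted equally. For each library the median deviation of members from their own mean over the 4 libraries, less the same median over all other tested genes, was 0.0451 and 0.0406 (log2) in scramble and -0.0404 and -0.0311 in Top1 KD libraries. The difference of -0.0787 left the groups without overlap, and the two-sided p of the exact permutation test was 0.333, again the smallest possible. Against the tested genes of chromosome 17, 742 in number, the difference was -0.0724 without overlap (p = 0.333, exact permutation test). Against chromosome 22 it was -0.0109, and the groups overlapped (p = 0.667, exact permutation test). Relative to the 142 tested genes of chromosome 19 outside the limits, members were higher in Top1 KD cells by 0.104 (p = 0.333, exact permutation test). The plot of library values places the other genes of chromosome 19 further from 0 than the members in all 4 libraries.

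**Figure D1:**
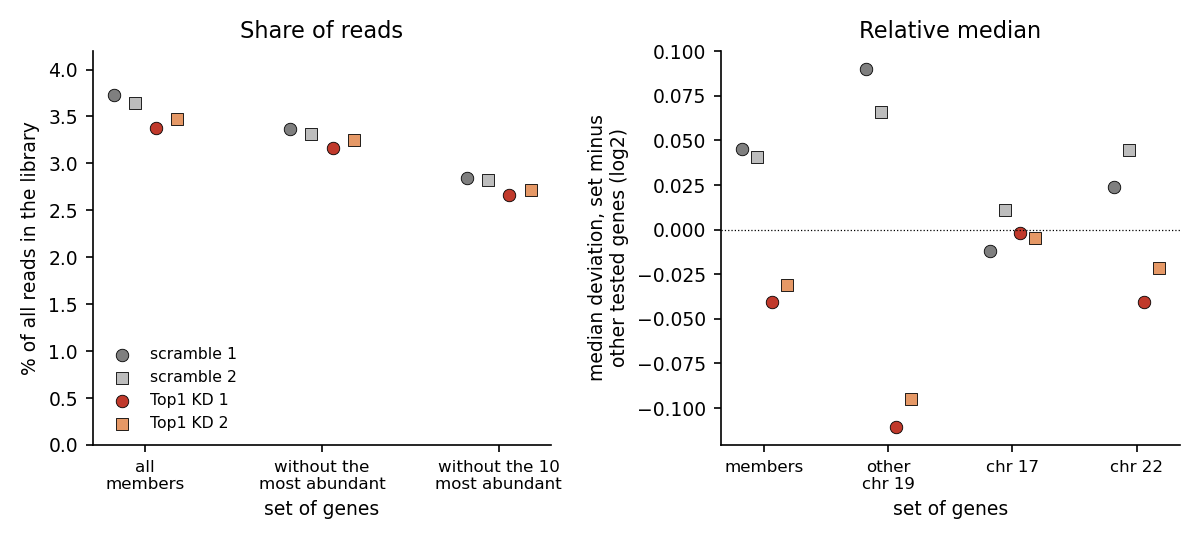
Left, percent of each library's reads on the members, with all members counted and without those with most reads. Right, median deviation (log2) of the members, of the other genes of chromosome 19 and of chromosomes 17 and 22, each less that of all other tested genes. Each point is 1 library. For the members, the scramble libraries lie at 0.0451 and 0.0406 and the Top1 KD libraries at -0.0404 and -0.0311.

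Gene by gene, 47 of the 717 tested members were called, that is, changed at least 1.5-fold with an adjusted p under 0.05 in limma over all 13086 tested genes. This was 6.56%, below the 8.15% called among all tested genes. Of these, 20 rose (2.79%, against 3.88% of all tested genes) and 27 fell (3.77%, against 4.26%). With the adjusted p alone and no fold threshold, 52 members were lower and 28 higher in Top1 KD cells (11.2% together, against 14.8%). Together with the share called among all tested genes, the count fell when certain libraries were left out. It was 10 without scramble 1, 21 without scramble 2 and 29 without Top1 KD 1, against 2.41%, 3.24% and 4.37% of all tested genes in the same fits.

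Small decreases outnumbered small increases among the members. The 2 scramble and 2 Top1 KD libraries did not overlap for 396 members (55.2%, against 57.8% of all tested genes), and of these 231 were lower in Top1 KD cells (32.2%, against 29.0%) and 165 higher (23.0%, against 28.8%). The median log2 fold change of Top1 KD over scramble was -0.07 over the members, with quartiles at -0.41 and 0.24, and 0.00 over all tested genes. On this measure 313 members (43.7%) lay above 0, against 50.2% of all tested genes. Values were similar on both strands, with 25 of 372 members called on the plus strand and 22 of 345 on the minus strand. On 19p 30 of 371 tested members were called (8.09%, 12 higher and 18 lower, median -0.09) and on 19q 17 of 346 (4.91%, 8 higher and 9 lower, median -0.04). Whether the arms differ was not tested.

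**Figure D2:**
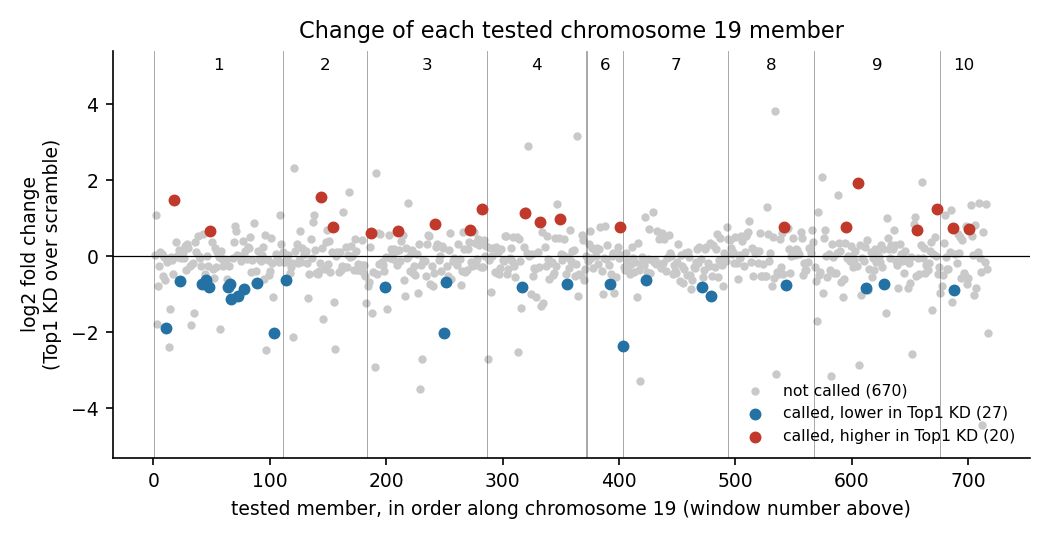
Log2 fold change (Top1 KD over scramble, limma) of each of the 717 tested members in their order along the chromosome. Vertical lines bound the 5 Mb windows, whose numbers stand above. Blue points are the 27 called decreases, of which 12 lie in window 1, and red points the 20 called increases. Most points past 2 log2 units in either direction are grey and belong to genes with few counts.

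The members were next divided into 5 Mb windows along the chromosome by gene start, numbered 1 to 4 on 19p (from 0 to 20 Mb) and 5 to 10 on 19q (from 25 Mb to the last member). Normalized counts were summed over all members of a window in each library and compared with limma beside every other such window of the genome. Window 5 held 1 member and was not fitted. Of the other 9, 3 were called at an adjusted p under 0.05, windows 1, 4 and 8, and each was lower in Top1 KD cells. Over all 550 windows 34.7% were called, 19.5% as lower and 15.3% as higher, so 3 of 9 was close to the background. Between scramble and Top1 KD the sums did not overlap in 7 of the 9 windows (69.5% of all 550), window 3 being the one of these with the higher sums in Top1 KD cells. Of all 550 windows, 35.5% were lower without overlap and 34% higher.

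Window 1, the first 5 Mb of 19p, fell most. Its members summed to 160018 and 148056 normalized counts in the scramble libraries and to 121199 and 123525 in the Top1 KD libraries. Both Top1 KD sums were close to 80% of the scramble mean, and the log2 fold change was -0.33 (SE 0.06, adjusted p = 0.000848, limma). Only 11 of the 550 windows of the genome had a lower value. The gene at chr19:3976054-3985467 supplied 32.6% of the window's counts. Without it the window was still called, with a log2 fold change of -0.15 (SE 0.03, adjusted p = 0.00721, limma). The call was kept with each library left out in turn.

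Window 1 was also the window with most called members. There 14 of 111 tested members were called (12.6%), 12 of them lower and 2 higher, so that 10.8% of its tested members were called as lower, against 4.26% of all tested genes. Nevertheless 42 of its 111 tested members lay above 0, and the median was -0.08. In windows of 2 Mb the decrease was largest between 2 and 4 Mb (log2 fold change -0.46, SE 0.07, adjusted p = 0.000372, limma), where 7 of 41 tested members were called. The decrease was smaller between 0 and 2 Mb (-0.15, SE 0.05, adjusted p = 0.0434, limma). The stretch from 2 to 4 Mb holds the gene at chr19:3976054-3985467, which supplied 32.6% of the counts of window 1. The 2 Mb windows were not fitted without their most abundant genes, so the part of that gene in the value of -0.46 is not given.

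Window 4 (15 to 20 Mb) held 57227 and 54897 normalized counts in scramble and 48980 and 51093 in Top1 KD libraries. The log2 fold change was -0.16 (SE 0.04, adjusted p = 0.00638, limma). Here the gene with most counts, at chr19:16178348-16213813, supplied 6.75% of the sum and fell by 0.45 (SE 0.10, adjusted p = 0.00864, limma), less than the fold threshold. Without it the window was still called, at -0.14. The next most abundant member, at chr19:19101702-19144368, fell by 0.46 on the log2 scale (SE 0.10, adjusted p = 0.00701, limma), and the third, at chr19:19496642-19619740, by 0.20 (adjusted p = 0.219, limma). Called decreases lay at chr19:17448353-17453544 (-0.80) and chr19:19144387-19168987 (-0.73). They made up 2.35% of the window's tested members, against 4.26% of all tested genes. Called increases made up 3.53%, against 3.88%. Without scramble 1 the window was no longer called, at a log2 fold change of -0.13.

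Window 8 (40 to 45 Mb) held 39904 and 39006 normalized counts in scramble and 35646 and 36592 in Top1 KD libraries, a log2 fold change of -0.13 (SE 0.04, adjusted p = 0.0142, limma). This sum rested on few genes. Its most abundant member, at chr19:42363988-42376994, supplied 17% of the counts and decreased from 8685 and 6494 to 5100 and 5449 (log2 fold change -0.51, SE 0.12, adjusted p = 0.00915, limma), and without it the window stood at -0.05 and was not called. It was also not called without scramble 1 (-0.11) or without scramble 2 (-0.14). The 2 Mb from 42 Mb on, which hold that gene, fell by 0.41 on the log2 scale (SE 0.06, adjusted p = 0.000385, limma) although none of their 18 tested members reached the 1.5-fold threshold with an adjusted p under 0.05. The next most abundant genes there, at chr19:42829761-42882921 and chr19:42460833-42463542, had log2 fold changes of -0.41 and -0.53. The silent run of 8 genes that starts at 42082601 ends just before the gene at 42363988.

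The remaining windows changed less. Windows 2, 7 and 9 had log2 fold changes of -0.10, -0.09 and -0.09 with adjusted p of 0.0564, 0.100 and 0.180 (limma). Window 2 was called in the fits without Top1 KD 2 (-0.13) and without the most abundant gene of each window (-0.12), as was window 7 (-0.13 and -0.11), and window 9 was called without Top1 KD 2 (-0.14). Windows 3, 6 and 10 stood at 0.03, 0.01 and 0.00. The window sums are led by abundant genes, and when the mean of the log2 values of tested members was used in place of the sum, so that each gene counted equally, 0 of the 9 windows were called (13 of 550 over the genome), and window 8 stood at 0.09 and window 1 at -0.21. Window 8 had more tested members above 0 than below (46 of 74), although its sum fell. Of the fitted windows, window 7 had the lowest share of tested members above 0, with 27 of 90 (30%).

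**Figure D3:**
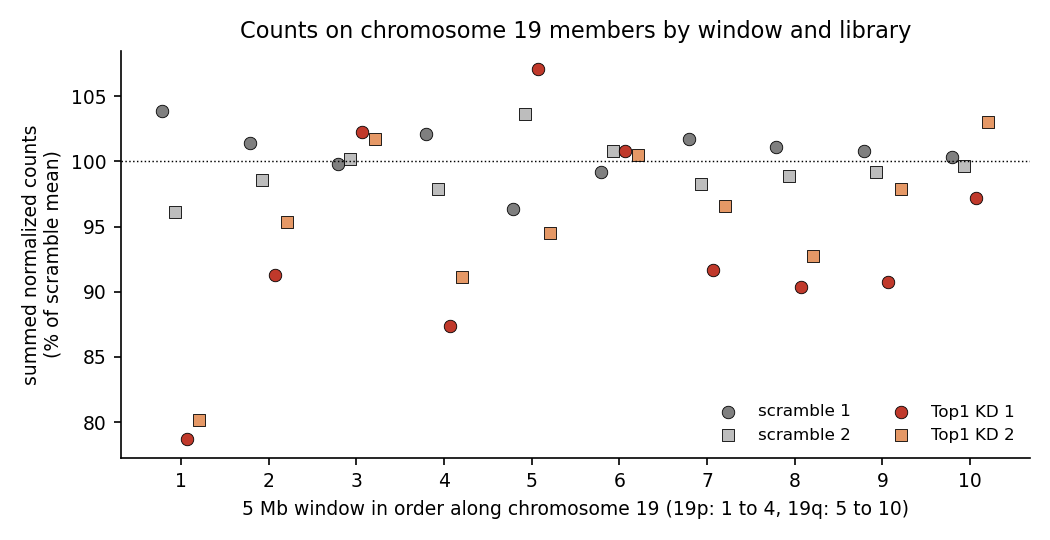
Normalized counts summed over all members of each 5 Mb window in each library, as percent of the mean of the scramble libraries (dotted line at 100%). Each point is 1 library, and window 5 holds a single gene. In window 1 the Top1 KD libraries lie at 78.7% and 80.2%, and in window 3 at 102.2% and 101.8%.

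Among called members whose mean over the 4 libraries was 100 normalized counts or higher, the largest decreases lay mostly at the start of 19p. Numbered by size, 6 of the 10 lay in window 1. The largest was ENST00000264560, at chr19:708953-748328 on the plus strand, with 283 and 227 normalized counts in scramble and 102 and 44.6 in Top1 KD libraries (log2 fold change -1.89, SE 0.39, adjusted p = 0.00480, limma). The Top1 KD replicates themselves differed more than 2-fold, and lack of overlap with scramble was a condition for a place in this ranking. The next tested neighbours of this gene, at 676392 and 797075, were not called. Without scramble 1 or without scramble 2 the gene was not called, at log2 fold changes of -1.74 and -2.05.

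The second decrease, ENST00000307741 at chr19:2785458-2813599 on the plus strand, was better measured. It had 2473 and 2187 normalized counts in scramble and 924 and 1219 in Top1 KD libraries (log2 fold change -1.13, SE 0.14, adjusted p = 0.000146, limma), and it was called with each library left out in turn. It formed part of a stretch of 5 tested genes, from 2714565 to 2835771, of which 3 fell. The gene that starts head to head with it across 2089 bases, at chr19:2754712-2783369 on the minus strand, had 1196 and 1225 counts in scramble and 678 and 772 in Top1 KD libraries (log2 fold change -0.74, SE 0.14, adjusted p = 0.00300, limma). The first gene of the stretch, at chr19:2714565-2721416, went from 466 and 636 to 301 and 317. Between these, the gene at chr19:2732522-2740150 had overlapping groups (563 and 520 against 382 and 538), and the last, at chr19:2819872-2835771, had nearly equal values (149 and 139 against 141 and 139). Called and uncalled genes thus lay side by side within 121 kb.

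The other 8 had log2 fold changes between -1.04 and -0.81. The third, at chr19:3053160-3062555, fell from 631 and 530 normalized counts to 290 and 270, and the tested gene that follows it at chr19:3094408-3124002 stood at 1244 and 1096 against 1237 and 1109. The fourth lay on 19q at chr19:39390639-39399526, with 538 and 464 in scramble against 208 and 283 in Top1 KD libraries, while the gene that starts 176 bases before it on the opposite strand was higher in Top1 KD cells without passing the test (621 and 800 against 845 and 948, adjusted p = 0.172, limma). The sixth to ninth, at 3490820, 46969755, 10654594 and 2714565, each had Top1 KD replicates closer to each other than to either scramble library. Of the 10, only the second kept its call whichever library was left out. Without scramble 1 the other 9 were not called, with log2 fold changes between -1.74 and -0.71, without scramble 2 7 of them and without Top1 KD 1 4 of them were not.

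The largest increases were more evenly spread, with 3 in window 4, 2 each in windows 3 and 9 and 1 each in windows 1, 2 and 6. ENST00000251289, at chr19:984331-994569 on the plus strand, rose from 118 and 155 normalized counts to 327 and 435 (log2 fold change 1.47, SE 0.27, adjusted p = 0.00229, limma). Its neighbours on either side, at 926000 and 1009647, were not called. Without scramble 1 it was not called either, at a log2 fold change of 1.28. This gene lay within window 1, where the summed counts fell most.

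ENST00000293350, at chr19:49956426-49974305 on the plus strand, rose from 294 and 336 to 715 and 784 (log2 fold change 1.25, SE 0.18, adjusted p = 0.000475, limma). It was called whichever library was left out. On its 5' side the nearest tested gene, at chr19:49949626-49956751 on the minus strand, was level (472 and 567 against 433 and 622). The 2 genes lie head to head and their 5' ends overlap. Reads in the shared stretch may count for either gene, because the sources do not state whether reads were counted by strand. On the 3' side of ENST00000293350, a gene at chr19:49990811-49995565 had 7522 and 7142 normalized counts in scramble and 5134 and 5451 in Top1 KD libraries. Its log2 fold change of -0.47 (SE 0.09, adjusted p = 0.00336, limma) was past the test but under 1.5-fold. Next to that gene lay the second most abundant member, at chr19:49999631-50002946, which went from 14497 and 14109 to 10972 and 12420 (-0.29, SE 0.09, adjusted p = 0.0396, limma). A called increase and 2 smaller decreases in abundant genes thus stood within 46.5 kb.

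The third increase, at chr19:14588574-14606944, rose from 319 and 414 to 949 and 776 (log2 fold change 1.24, SE 0.19, adjusted p = 0.000650, limma), and the seventh, at chr19:12757327-12777556, from 596 and 603 to 1087 and 1062 (0.84, SE 0.15, adjusted p = 0.00155, limma). Both kept their calls whichever library was left out. In the seventh the replicates of both groups were close together. The fourth, the fifth and the sixth lay within window 4, at 17529890, 18794488 and 18263928, with log2 fold changes of 1.13, 0.98 and 0.89, while that window's sum fell. The fourth had 105 and 182 counts in scramble and 272 and 340 in Top1 KD libraries, and the sixth 315 and 487 against 731 and 722, so in both the scramble replicates were far apart. Neither was called without scramble 1 (0.74 and 0.57), without Top1 KD 1 (1.30 and 0.88) or without Top1 KD 2 (0.97 and 0.90). The fifth, at 98.5 kb the longest called member, went from 164 and 186 to 368 and 325. It was not called without scramble 1 (0.89), without scramble 2 (1.07) or without Top1 KD 1 (0.89).

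**Figure D4:**
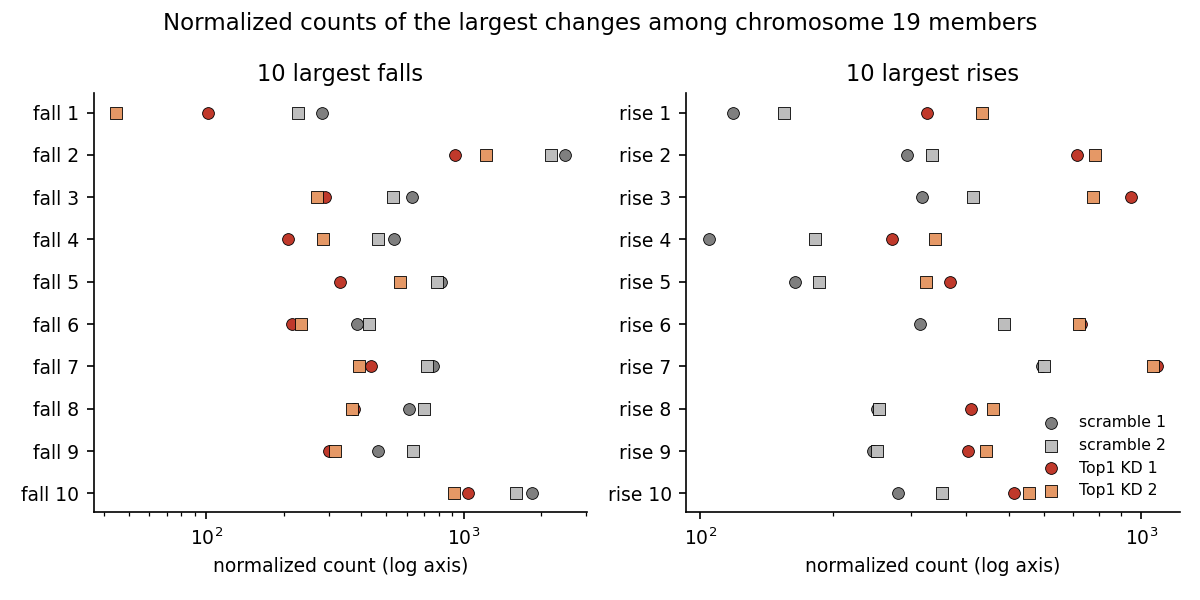
Normalized counts (log axis) of the 10 largest decreases (left) and the 10 largest increases (right) among called members whose mean was 100 or higher, ordered by size of the change from top to bottom. Each point is 1 library. Only genes without overlap of the groups were eligible. The second decrease sits at 2473 and 2187 in scramble and at 924 and 1219 in Top1 KD libraries.

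Among the 5 members with the most counts, only the first passed the fold threshold. The gene at chr19:3976054-3985467 went from 60028 and 52100 to 33769 and 34259 normalized counts (log2 fold change -0.72, SE 0.09, adjusted p = 0.000173, limma), and it was called whichever library was left out. The second was the gene at 49999631 given above. The neighbours of the first were not called, at chr19:3958451-3971068 with 737 and 653 against 513 and 546, and at chr19:4007644-4039384 with 427 and 458 against 501 and 477. The next in order after these, at 34919268, 13049421 and 5674958, had overlapping groups and log2 fold changes of 0.04, -0.04 and -0.02.

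Several called members with fewer counts had larger changes, with wider errors. The largest among those called was a fall of 2.36 on the log2 scale at chr19:34972543-34997258, from 67.2 and 63.3 normalized counts to 7.58 and 18.4 (SE 0.72, adjusted p = 0.0364, limma). At chr19:12902310-12904124 the values were 90.7 and 95.9 against 16.2 and 30.0 (log2 fold change -2.03, SE 0.56, adjusted p = 0.0240, limma), and at chr19:4542605-4559820 they were 162 and 101 against 28.1 and 33.9 (-2.02, SE 0.48, adjusted p = 0.0108, limma). In the other direction, the gene at chr19:46393278-46405862 had 28.8 and 15.0 against 110 and 60.1 (1.92, SE 0.61, adjusted p = 0.0451, limma). As in every called member, and in 57.8% of all tested genes, the groups did not overlap in these 4. None of them was called without scramble 1, without scramble 2 or without Top1 KD 1, and the first and the last of them also missed the threshold in edgeR's test.

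At the median, called decreases were shorter genes than called increases. Among the 27 decreases the median length was 9.50 kb and the median normalized count 967, and among the 20 increases they were 18.1 kb and 479. Uncalled tested members had a median length of 16.1 kb and a median of 258 counts. Over all tested genes, called decreases likewise outnumbered called increases under 5 kb (71 against 28) and at 5 to 10 kb (85 against 47). At 40 kb or more they did not (205 against 259). At least a 2-fold change on the fitted scale was reached by 7 decreases and 6 increases. Of all tested genes, 340 (2.60%) were called at that threshold. Overlap with another gene was seen for 3 of the 27 and 4 of the 20, against 13.7% of all tested members.

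By length, the called decreases were most numerous in members of 5 to 10 kb. In this class 14 of 116 tested members were called (12.1%, against 8.90% of all tested genes of that length), 12 of them lower (10.3%, against 5.73%) and 2 higher. In the class of 10 to 20 kb, 13 of 212 were called (6.13%, against 7.99%), 9 of them higher (4.25%, against 3.70%) and 4 lower (1.89%, against 4.30%). Under 5 kb, 2 of 96 were called, both lower, against 8.14% of all tested genes of that length. At 20 to 40 kb, 11 of 178 were called (6.18%, against 7.57%), 4 of them higher and 7 lower (3.93%, against 3.98%). Among the 115 members of 40 kb or more, 5 were called as higher (4.35%, against 4.62%) and 2 as lower (1.74%, against 3.66%). No difference between classes was tested.

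The median fold change of members lay below 0 in every length class, whereas in the genome the longest class lay above 0. For members it was -0.10, -0.12, -0.06, -0.06 and -0.04 from the shortest class to the longest. Over all tested genes it went from -0.09 through -0.05, -0.04 and -0.04 to 0.05. The difference between members and the genome was thus widest in genes of 40 kb or more. Per library, the median deviation of members in this class less that of other tested genes of the class was 0.0525 and 0.0553 in scramble and -0.0343 and -0.0442 in Top1 KD libraries, without overlap (p = 0.333, exact permutation test, the smallest possible). Under 5 kb (p = 0.667) and at 5 to 10 kb (p = 0.667), the groups overlapped in the same exact permutation test. Members of 40 kb or more had a median length of 56.2 kb against 90.6 kb in the genome, so this class holds fewer very long genes on chromosome 19. The Spearman correlation of length and log2 fold change was 0.05 over the 717 members and 0.12 over all 13086 tested genes. These are descriptions across genes, which share the libraries and are not independent replicates.

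By count, called decreases outnumbered increases in members of 1000 to 10000 normalized counts. There 15 of 136 were called (11%, against 6.69% of all tested genes in the class), 11 lower and 4 higher, while in the genome this class held about as many called increases (143) as decreases (138). The median was -0.13 against 0.01. The relative median of this class was 0.0796 and 0.0498 in scramble and -0.110 and -0.0462 in Top1 KD libraries, without overlap (p = 0.333, exact permutation test). Between 100 and 1000 counts, 26 of 363 members were called (7.16%, against 11.8%), with 14 higher and 12 lower. Under 100 counts 5 of 214 were called (2.34%, against 2.52%) and the relative medians overlapped (p = 0.667, exact permutation test). The class of 10000 counts or more held 4 members, of which 1 was called, as lower (8.97% of all such genes were called).

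Within the members of 1000 counts or more, the classes under 40 kb lay below 0 and the longest class did not. The medians were -0.25 over 18 members under 5 kb, -0.18 over 22 of 5 to 10 kb, -0.09 over 35 of 10 to 20 kb, -0.14 over 33 of 20 to 40 kb and 0.02 over 32 of 40 kb or more. Over all tested genes with such counts they were -0.09, -0.09, -0.07, -0.05 and 0.06. At these counts the difference between members and the genome was thus widest under 5 kb. Of the 22 abundant members of 5 to 10 kb, 5 were called, all lower (22.7%, against 7.99% of the 313 tested genes of that length and count called as lower). Of the 32 of 40 kb or more, 5 were also called (15.6%, against 5.86%), 3 higher and 2 lower. At 10 to 20 kb 3 of 35 were called (8.57%, against 6.81%) and at 20 to 40 kb 3 of 33 (9.09%, against 6.73%). Under 5 kb 0 of 18 were called, against 10.2%. Below 1000 counts the medians of the members lay between -0.10 and -0.04 in every length class.

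**Figure D5:**
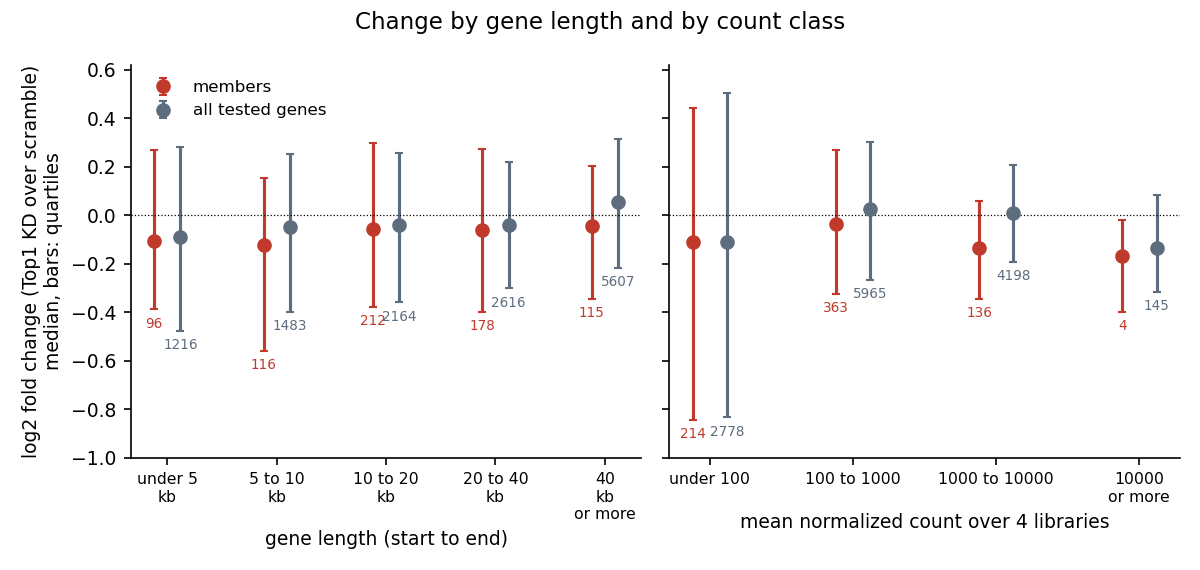
Median log2 fold change (Top1 KD over scramble) of tested members (red) and of all tested genes (grey), by gene length on the left and by mean normalized count on the right. Bars reach from the lower to the upper quartile, and the numbers of genes stand below them. At 40 kb or more the members lie at -0.04 and all tested genes at 0.05, and at 1000 to 10000 counts they lie at -0.13 and 0.01.

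Crowding itself was compared by the distance to the nearest gene of the table. Median log2 fold changes were 0.00 for the 98 tested members that overlap another gene, -0.05 for 194 with a neighbour within 1 kb, -0.13 for 206 at 1 to 5 kb, -0.08 for 172 at 5 to 20 kb and -0.13 for 47 further away. The members did not fall more the closer their neighbour lay. Over all tested genes the same classes stood at -0.02, -0.05, -0.01, 0.02 and 0.04. Calls ranged from 4.26% of the most distant class, where 2 of 47 members were called, to 7.77% of that at 1 to 5 kb. Over all tested genes these classes stood at 8.44% and 7.68%.

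Neighbouring members showed little common direction. Of 715 pairs of adjacent tested members, 349 had fold changes of the same sign (48.8%, against 51.4% of 13062 such pairs in the genome), and Pearson's r was -0.09 across pairs, against 0.03. For 67 head-to-head pairs within 5 kb r was 0.23, against 0.04 over 1087 such pairs in the genome, and 35 of the 67 had the same sign. These correlations are given as descriptions, since pairs share genes and libraries.

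Both genes were called in 5 of the adjacent pairs, 2 in the same direction and 3 in opposite directions. In the genome both were called in 99 of the 13062 pairs, 61 in the same and 38 in opposite directions, so 5 of 715 was close to the background. One of the former was the head-to-head pair that starts at 2754712 and 2785458. The other was a pair transcribed towards each other at chr19:12902310-12904124 and chr19:12907634-12912673, of which the second went from 2073 and 2010 to 1165 and 1380 normalized counts (log2 fold change -0.69, SE 0.12, adjusted p = 0.00208, limma). Opposite changes were seen for genes in tandem on the minus strand at chr19:1985447-2015719, which fell from 1845 and 1599 to 1040 and 920, and chr19:2037481-2051243, which rose from 1720 and 1552 to 2985 and 2260. Without scramble 1 the former, the tenth of the largest decreases, was not called (-0.71). In a second tandem pair on the minus strand, the gene at chr19:44047192-44080158 rose (226 and 337 against 475 and 461) and that at chr19:44088521-44100287 fell (1894 and 2310 against 1275 and 1209). The former was not called in any fit that left out 1 library, with log2 fold changes of 0.47 to 1.05.

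The last of these pairs overlapped. The gene at chr19:50270225-50310369 on the plus strand rose from 941 and 1158 to 1859 and 1658 normalized counts (log2 fold change 0.75, SE 0.14, adjusted p = 0.00215, limma). The gene at chr19:50310154-50316527 on the minus strand, transcribed towards it, fell from 814 and 789 to 332 and 567 (-0.88, SE 0.21, adjusted p = 0.0119, limma). Their 3' ends share about 215 bases. The sources do not state whether reads were counted by strand, so reads in the shared stretch may count for either gene. The decrease was not called without Top1 KD 1, at -0.50, or without scramble 1 or scramble 2, at -0.86 and -0.91.

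At the end of window 6 a group of 3 genes on the plus strand showed each outcome side by side. The first, at chr19:34895289-34917072, rose from 281 and 353 to 513 and 555 (log2 fold change 0.76, SE 0.20, adjusted p = 0.0189, limma). The second, at chr19:34919268-34960853, was the third most abundant member and stood at 12010 and 13116 against 13123 and 12760 (0.04, SE 0.09, adjusted p = 0.788, limma). The third was the gene at chr19:34972543-34997258 with the fall of 2.36 given above. The first was called in no fit that left out 1 library (0.60 to 0.93), and the third only in that without Top1 KD 2.

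The positional limits did not fall on strongly changed genes. The last member on 19p, at chr19:19821280-19843906, stood at 175 and 187 normalized counts against 150 and 138, and the next gene beyond it, at chr19:19902620-19932560, at 172 and 113 against 197 and 96.9. On 19q the first member, at chr19:29698173-29704448, stood at 1448 and 1558 against 1609 and 1421, and the last gene before it, at chr19:24269995-24312654, at 248 and 205 against 244 and 200. The last member at the far limit had no read, and the first gene beyond it, at chr19:52374535-52391204, stood at 77.9 and 80.1 against 79.0 and 94.0.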

How the data were processed

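Single-end total RNA-seq reads were cleaned by the authors with fastq-mcf and mapped with TopHat2 (2.0.5 in the submitters' processing notes, which also name HTSeq, DESeq2 and hg19), keeping uniquely mapped reads. The annotation release is not given in the sources used here. The values the authors deposited are a signal, namely read counts per gene divided by a DESeq2 size factor. The table they deposited also holds their own comparison (a log2 fold change and its error, a test score, p-values and a call), which was not used. Normalized counts were whole multiples of 1 read for 100% of values (tolerance 0.05 read), so reads were recovered by rounding.

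Genes with at least 10 normalized counts in 2 libraries were tested with limma 3.58.1 (R 4.3.3) on log2(count + 1) with a mean-variance trend. The pseudocount understates changes of genes with low counts. P-values were adjusted (Benjamini-Hochberg) over all 13086 tested genes, and genes were called at an adjusted p under 0.05 and 1.5-fold. Sums over 5 Mb windows with at least 5 tested genes were fitted the same way on log2(sum + 1), with no fold threshold. Single values per library were compared by an exact two-sided permutation test. Alternatives included edgeR 4.0.16 and DESeq2 1.42.0 on recovered reads, other scaling, filters, pseudocounts and thresholds, and leaving out each library. Code was checked on simulated counts.

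Named members were the 10 largest rises and falls among called members with a mean of at least 100 and no overlap of groups, the 5 with most counts, and the largest called change of each window. Other members were named where they neighbour these, form a pair of called genes, lead a window's counts or lie at a limit, and were chosen after their values were seen. Of 19333 identifiers, 0 matched a key of the name tables, so 2 rises and 2 falls are given by identifier and the rest by position, planned gene lists are not reported, and no sequence is shown. Of the value columns, 0 were without a sample. The members, windows and classes were chosen with earlier results of these data known.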

Additional observations from a re-analysis of the deposited data

How the results depend on the processing

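The number of called members stayed between 47 and 53 with edgeR, DESeq2, library-size scaling, other filters and pseudocounts and the replicate block. In the same fits 6.47% (no filter, 904 members tested) to 9.86% (filter of 50 counts, 587 members tested) of all tested genes were called. The number of called members was 13 at a 2-fold threshold (2.60% of all tested genes), 80 with no fold threshold (14.8%) and, chosen after seeing the data, 94 at an unadjusted p (12.7%). With each library left out it ranged from 10 to 62 (2.41% to 10.2% of all tested genes). In these fits 1 group has a single library, assumed to vary like the other group. The replicate numbers did not pair the libraries (correlation of deviations -0.01 over all tested genes, 0.05 over members), and with the replicate block 47 members and 4 windows were called (8.29% of all tested genes and 41.8% of all windows), window 2 being added.

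Of the 9 windows fitted, 3 were called. The count was 0 with means of log2 values (2.36% of all windows), 8 of 21 with 2 Mb windows (33.2%), 4 without the most abundant gene of each window (28.4%, chosen after seeing the data) and 1 to 6 with a library left out (18% to 34.2%). With means of log2 values, window 1 stood at -0.214 and window 4 at -0.0638, neither called, window 8 reversed to 0.0948, and windows 3, 6 and 10 reversed to -0.127, -0.0859 and -0.107. Without the most abundant gene, window 8 stood at -0.0467, not called, window 6 at -0.00472 and window 10 at -0.0283. Leave-one-out values ranged from -0.195 to -0.134 for window 4, -0.146 to -0.109 for window 8, -0.00222 to 0.0213 for window 6 and -0.0405 to 0.0434 for window 10.

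The difference in the share of reads was -0.142 points without the 10 members with most reads and -0.306 to -0.215 with a library left out. The median log2 fold change was -0.0427 with library-size scaling, -0.0498 at a filter of 50 counts and -0.0965 to -0.0673 with a library left out. Of the 31 named members, DESeq2 and the replicate block changed no call or direction, and edgeR lost 2 calls. The fifth most abundant member reversed to 0.00579 with library-size scaling. Leave-one-out values ranged from -0.0195 to 0.108 for the third most abundant, -0.171 to 0.0872 for the fourth and -0.101 to 0.0634 for the fifth. The causes were not tested. Precision is limited by 2 libraries a group.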
